A study of Mus musculus with 6 samples.

Results

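The genes described here are the 5 members of the thrombospondin family, Thbs1, Thbs2, Thbs3, Thbs4 and Comp (cartilage oligomeric matrix protein). They were taken by symbol from a deposited count table of 52997 genes. The family was chosen with earlier results of these data known, and no member was left out for its values. All 5 passed the filter on low counts that left 10823 genes for testing. The table covers mesenchymal stromal cells, which make the matrix of connective tissue, from resting C57BL/6 mice aged 8 weeks. The cells came from hindlimb skeletal muscle (3 libraries) or from lymph nodes combined over inguinal, axillary, brachial and cervical sites (3 libraries). A library held 1000 double-sorted cells, and no mutation, transgene or treatment is given for either tissue.

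Thrombospondins are secreted proteins that bind calcium, matrix proteins and cell surface receptors, and they act mostly by changing how cells meet their matrix. Thbs1 and Thbs2 assemble into trimers, carry type 1 repeats and limit blood vessel growth, and thrombospondin-1 can activate latent TGF-beta. Thbs3, Thbs4 and Comp assemble into pentamers without type 1 repeats, and Thbs4 and Comp are known as matrix proteins of tendon, cartilage and muscle connective tissue.

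Total counts were between 415460 and 2397134 per library, with the lowest in muscle library 4. Libraries are called by the numbers of the count table, muscle 2, 3 and 4 and lymph node 1, 2 and 3. Muscle library 4 stood apart. Its log2 levels correlated at r = 0.705 with muscle 2 and 0.702 with muscle 3 across the tested genes, against 0.952 between muscle 2 and 3 and 0.952 to 0.969 among lymph node libraries. Genes are not independent replicates, so these correlations are descriptions. Summed markers of B cells reached 516 CPM (counts scaled to library size by TMM) in muscle 4, against 2.28 to 14.1 CPM in the other 5 libraries. T cell markers reached 210 CPM against 0.571 to 7.38 CPM. Myeloid markers reached 121 against 7.68 to 20.5 CPM, of which Lyz2 was 83.3 CPM and Tyrobp 26.9 CPM. Adgre1 and Fcer1g had 5.38 CPM in muscle 4, on 2 counts each, and Cd68, Csf1r and Itgam were at 0 there. Endothelial markers reached 64.5 against 6.33 to 13.1 CPM, of which Pecam1 was 59.1 CPM. Kdr and Emcn had 2.69 CPM in muscle 4, on 1 count each, and Cdh5 and Cldn5 were at 0 there. Stromal markers (Pdgfra, Col1a1, Dcn and others) summed to 34754 to 43645 CPM in muscle, against 45641 to 56245 in lymph node, with none at 0 in any library. Of the reticular cell markers, Cxcl13 had 14.8, 2.31 and 2.69 CPM in muscle 2, 3 and 4, against 370, 341 and 410.2 in lymph node 1, 2 and 3. Pdpn overlapped between the tissues, Ccl19 had at most 8 counts in a library, and Ccl21a was at 0 in all 6 libraries. The muscle samples are titled 2a, 2b and 3, so 2 of them may share a source, and no source used here says which libraries were made from different animals. Below, n = 3 is a number of libraries, and p-values set the tissue difference against the spread between these libraries, estimated in part over all genes. Whether this is also a spread between animals is not known. The tests of the members, their levels per length and the counts of the gene lists are also given without muscle 4.

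The family changed in both directions between the tissues. Thbs4 and Comp were higher in muscle stromal cells, by 16.5-fold and 37.8-fold, Thbs2 was 2.54-fold lower, and Thbs1 and Thbs3 did not pass the test. Of all 10823 genes tested with edgeR's quasi-likelihood test at an adjusted p of 0.05, 158 (1.46%) were higher in muscle and 310 (2.86%) lower, against 2 and 1 of the 5 family members. The values of 3 members did not overlap between the tissues, which was so for 2555 (23.6%) of all tested genes. Without muscle 4 the same 3 members passed, against a background of 539 genes higher (4.79%) and 852 lower (7.58%) among 11246 tested. In RNA from whole cell populations, a smaller number of cells with a transcript and less of it per cell cannot be told apart.

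**Figure D1:**
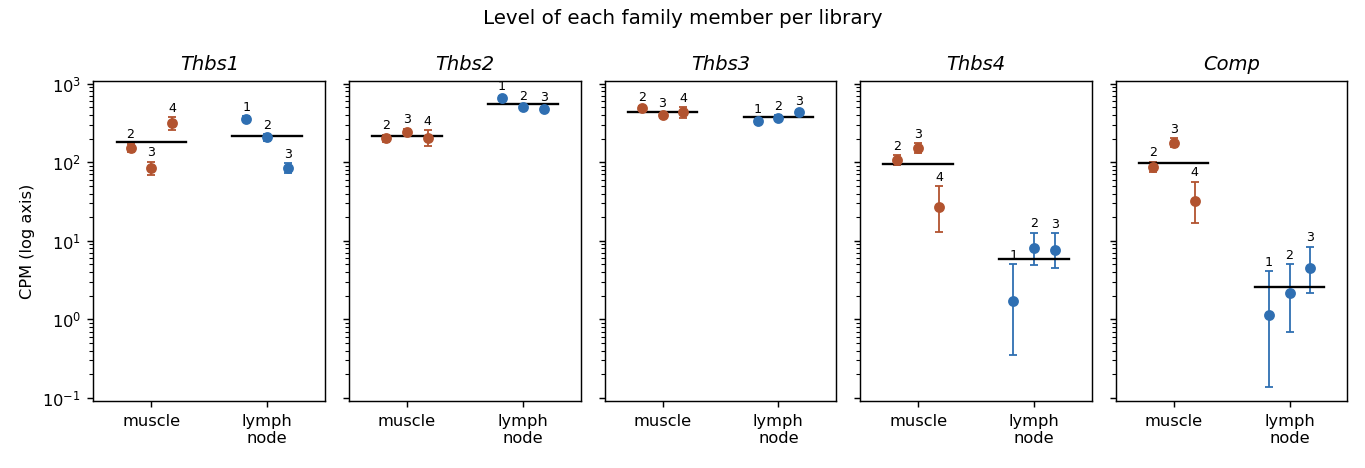
Levels of the 5 family members in each library, in CPM on a log axis, with muscle left of lymph node in each panel. Points are libraries with their numbers, bars are exact 95% counting intervals and black lines are tissue means; Thbs4 and Comp lie higher in all 3 muscle libraries, Thbs2 lies higher in all 3 lymph node libraries, and the tissues overlap for Thbs1 and Thbs3.

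The members lie on 5 chromosomes, so no pair shares a locus, and their transcripts share few exact runs of 25 bases. Likeness short of exact runs was not measured. Between paralogs, the longest runs shared by the annotated transcripts of a pair were 26 bases, in the 2 pairs below. They are shown because paired reads of 25 bases were counted. Such a run is the only place where a whole read could match both genes without a mismatch.
Thbs1 and Thbs2: ggagaccgctgtgacaactgccccta
Thbs4 and Comp: cagaccatgaacagtgaccctggcct
The share of 25-base words found in transcripts of any other gene was 0.071% for Thbs2, 0.061% for Thbs4 and 0.067% for Comp. It was 2.99% for Thbs1 and 5.24% for Thbs3, whose exons overlap a gene on the opposite strand. Of the Thbs1 exon bases, 3.42% lie in exons of the antisense lincRNA Gm29233, and of the Thbs3 exon bases, 6.59% (318 bases) lie in exons of Mtx1, a gene for a mitochondrial import protein. The use of strand in counting is not stated, so reads from these overlaps cannot be told apart.

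RefSeq promoter sequence of the GRCm38.p6 build was held here for 3 members: Thbs4, which was higher in muscle, Thbs2, which was lower, and Thbs3, which did not pass the test. The 250 bases before each start are given on the gene's own strand, with capitals marking matches, on either strand, to the GC box GGGCGG, the TATA box TATAAA and the CCAAT box CCAAT. These motifs were picked after the family's results were known.
Thbs4, chr13:92794819-92795068, minus strand: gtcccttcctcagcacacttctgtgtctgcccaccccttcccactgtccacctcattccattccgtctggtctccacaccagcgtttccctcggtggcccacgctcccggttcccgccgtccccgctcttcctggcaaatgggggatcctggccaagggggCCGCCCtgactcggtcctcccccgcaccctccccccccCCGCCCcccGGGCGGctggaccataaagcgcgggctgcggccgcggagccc
Thbs2, chr17:14694263-14694512, minus strand: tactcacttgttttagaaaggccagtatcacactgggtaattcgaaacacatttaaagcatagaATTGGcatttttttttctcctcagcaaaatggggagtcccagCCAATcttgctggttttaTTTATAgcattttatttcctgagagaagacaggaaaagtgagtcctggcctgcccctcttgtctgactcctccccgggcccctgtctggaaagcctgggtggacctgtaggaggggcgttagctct
Thbs3, chr3:89214930-89215179, plus strand: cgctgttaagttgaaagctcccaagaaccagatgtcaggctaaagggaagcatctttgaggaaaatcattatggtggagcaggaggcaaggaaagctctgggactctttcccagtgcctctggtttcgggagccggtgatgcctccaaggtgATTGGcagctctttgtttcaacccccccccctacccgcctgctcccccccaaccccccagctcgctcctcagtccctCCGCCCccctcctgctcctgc
The Thbs4 stretch held 3 GC boxes, which begin 89, 51 and 42 bases before the start, and its GC content was 70.8%, against a median of 52.4% over all 32851 promoter entries. The Thbs2 stretch held no GC box, 1 TATA box beginning 126 bases and 2 CCAAT boxes beginning 186 and 144 bases before the start, at 46.8% GC. The Thbs3 stretch held 1 GC box at 21 bases and 1 CCAAT box at 98 bases, at 58.8% GC. Among all entries of this length, 32.7% held a GC box, 12.4% a TATA box and 33.9% a CCAAT box. The AP-1 site TGANTCA, found in 6.75% of all entries, was in none of the 3. No match overlapped another in these stretches, and a match is a description of letters only.

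Comp encodes a pentameric matrix protein that binds collagens and matrilins and is abundant in cartilage and tendon. It lies at chr8:70373558-70382066 on the plus strand (GRCm38, as are all gene positions below from the GENCODE M21 annotation). Its counts were 166, 231 and 12 in muscle 2, 3 and 4, against 2, 5 and 10 in lymph node 1, 2 and 3. Scaled to library size, these were 87.6, 178 and 32.3 CPM in muscle, against 1.14, 2.15 and 4.55 in lymph node. Every muscle library lay above every lymph node library, and muscle 4 was the lowest of the 3 muscle libraries, with muscle 2 and 3 averaging 4.11 times its level. The counting interval of muscle 4, 16.7 to 56.3 CPM, lay below those of muscle 2 (74.7 to 102 CPM) and muscle 3 (155 to 202 CPM). The mean was 99.1 ± 73.3 CPM in muscle, against 2.61 ± 1.75 in lymph node (SD, n = 3 each). The log2 fold change was 5.24 ± 0.65 (SE; 95% interval 3.97 to 6.51; edgeR adjusted p = 0.00222), and without muscle 4 it was 5.56 ± 0.39 (adjusted p = 3.17e-07). It moved by over 1.5 times in fold without muscle 3, to a log2 of 4.53, and without lymph node 3, to 5.84, and it passed the test without each library in turn.

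Thbs4 encodes thrombospondin-4, a pentamer of tendon and muscle matrix that also acts inside the secretory pathway in mouse heart. It lies at chr13:92751590-92794818 on the minus strand. Its counts were 203, 198 and 10 in muscle 2, 3 and 4, against 3, 19 and 17 in lymph node 1, 2 and 3. These were 107, 152 and 26.9 CPM in muscle, against 1.71, 8.16 and 7.74 in lymph node. The tissues did not overlap. As for Comp, muscle 4 was the lowest muscle library, with an interval of 12.9 to 49.4 CPM against 92.9 to 123 CPM in muscle 2 and 132 to 175 CPM in muscle 3. Lymph node 1 held only 3 counts, with an interval of 0.353 to 5.01 CPM that touches that of lymph node 2, 4.91 to 12.7 CPM. The mean was 95.4 ± 63.4 CPM in muscle, against 5.87 ± 3.61 in lymph node (SD, n = 3 each). The log2 fold change was 4.04 ± 0.61 (SE; 95% interval 2.85 to 5.23; adjusted p = 0.00587), and without muscle 4 it was 4.37 ± 0.32, or 20.6-fold (adjusted p = 4.18e-07). Without lymph node 2 or without lymph node 3 the log2 fold change was 4.30 and 4.23, and the adjusted p was 0.0577 and 0.0579, above the threshold. Thbs4 and Comp entered the test through the muscle libraries, where they are high.

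Thbs2 encodes thrombospondin-2, a trimer that limits vessel growth and takes part in collagen fibril assembly in connective tissue. It lies at chr17:14665500-14694235 on the minus strand. Its counts were 385, 313 and 76 in muscle 2, 3 and 4, against 1167, 1176 and 1049 in lymph node 1, 2 and 3. These were 203, 241 and 204 CPM in muscle, against 666, 505 and 478 in lymph node. Every muscle library lay below every lymph node library, and muscle 4 was at the level of muscle 2. The mean was 216 ± 21.3 CPM in muscle, against 549.7 ± 102 in lymph node (SD, n = 3 each). The log2 fold change was -1.34 ± 0.20 (SE; 95% interval -1.73 to -0.956; adjusted p = 0.00535), and it was -1.32 ± 0.17 without muscle 4 (adjusted p = 1.13e-04). The highest library was 1.18 times the lowest in muscle and 1.40 times in lymph node, the narrowest spread in muscle among the 5 members.

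Thbs3 encodes thrombospondin-3, a pentamer of skeletal and other connective tissues. It lies at chr3:89215180-89226837 on the plus strand. Its counts were 927, 516 and 160 in muscle 2, 3 and 4, against 580, 859 and 955 in lymph node 1, 2 and 3. These were 489, 397 and 430.1 CPM in muscle, against 331, 369 and 435 in lymph node. The tissues overlapped, with lymph node 3 above muscle 3 and muscle 4. The mean was 439 ± 46.8 CPM in muscle, against 378 ± 52.4 in lymph node (SD, n = 3 each). The log2 fold change was 0.21 ± 0.18 (SE; 95% interval -0.146 to 0.574; adjusted p = 0.674), and 0.22 ± 0.15 without muscle 4 (adjusted p = 0.442). The interval holds 0 and differences up to its ends, so equal levels are not shown. Its neighbour Mtx1, whose RefSeq start lies 1273 bases away on the opposite strand, had a log2 fold change of -0.29 (adjusted p = 0.780). Mtx3, the metaxin gene whose start lies 49950 bases from that of Thbs4, had 0.28 (adjusted p = 0.824), and none of the 3 metaxin genes passed the test with all libraries or without muscle 4.

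Thbs1 encodes thrombospondin-1, a trimer also stored in platelets and known as a serum response gene. It lies at chr2:118111876-118127133 on the plus strand. Its counts were 291, 110 and 116 in muscle 2, 3 and 4, against 627, 481 and 186 in lymph node 1, 2 and 3. These were 153, 84.5 and 312 CPM in muscle, against 358, 207 and 84.7 in lymph node. The tissues overlapped over nearly their whole range: muscle 3 and lymph node 3 were the low libraries, and muscle 4 and lymph node 1 the high ones. Within muscle the highest library was 3.69 times the lowest, and within lymph node 4.23 times. The counting intervals of muscle 3 (69.5 to 102 CPM) and muscle 4 (258 to 374 CPM) did not meet, nor did those of lymph node 3 (72.9 to 97.8 CPM) and lymph node 1 (331 to 387 CPM). The mean was 183 ± 117 CPM in muscle, against 216 ± 137 in lymph node (SD, n = 3 each). The log2 fold change was -0.29 ± 0.55 (SE; 95% interval -1.37 to 0.778; adjusted p = 0.871). Without muscle 4, which lay at 2.62 times the mean of muscle 2 and 3, it was -0.84 ± 0.42 (adjusted p = 0.248). It was above 0 without lymph node 1 (0.26) and without muscle 3 (0.05). Of 7 platelet markers, Itga2b had 19.5, 15.4 and 0 CPM in muscle 2, 3 and 4, against 45.7, 21.9 and 17.8 in lymph node 1, 2 and 3. Itga2b made up most of the platelet marker sum in the libraries other than muscle 4. That sum was 8.06 to 23.7 CPM in muscle, lowest in muscle 4, and 22.3 to 49.7 CPM in lymph node. The platelet chemokines Pf4 and Ppbp had at most 2 counts in any library. The summed B cell, T cell, myeloid and endothelial markers were highest in muscle 4, where Thbs1 was highest among the muscle libraries. Lymph node 1, with the highest Thbs1 of all, had the lowest B cell and T cell sums, 2.28 and 0.571 CPM. Its myeloid and endothelial sums were 16.6 and 8.57 CPM. The part of any of these cells in the Thbs1 values was not tested.

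**Figure D2:**
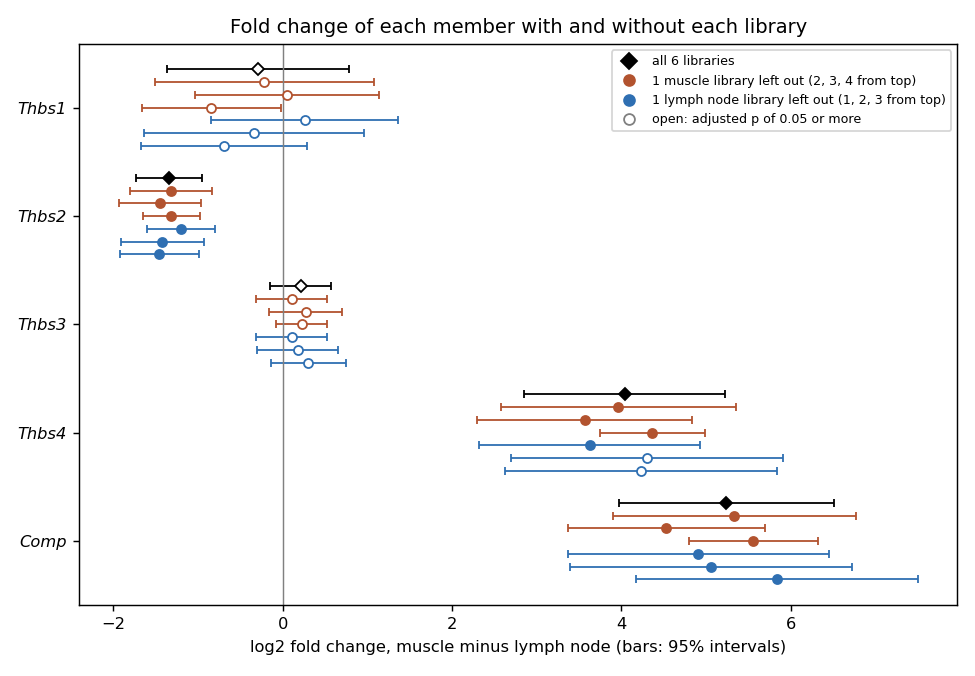
Log2 fold change, muscle minus lymph node, of each member with all 6 libraries (diamonds) and with 1 library left out (circles); bars are 95% intervals and open symbols have an adjusted p of 0.05 or more. Thbs2 stays between -1.46 and -1.20, Comp between 4.53 and 5.84, Thbs4 between 3.57 and 4.37 with 2 open symbols, and Thbs1 lies on both sides of 0.

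Between genes, levels were compared per length, as CPM per kilobase of the union of exons, which was 6073 bases for Thbs1, 7003 for Thbs2, 4823 for Thbs3, 3289 for Thbs4 and 2967 for Comp. In muscle the order of mean levels was Thbs3 with 90.9 ± 9.70, Comp with 33.4 ± 24.7, Thbs2 with 30.8 ± 3.04, Thbs1 with 30.2 ± 19.2 and Thbs4 with 29.0 ± 19.3 CPM per kilobase (SD, n = 3). Thbs3 lay above the others in all muscle libraries, while the ranges of the other 4 overlapped and their order is not set. Without muscle 4 the muscle means were 91.8 for Thbs3, 44.7 for Comp, 39.4 for Thbs4, 31.7 for Thbs2 and 19.6 CPM per kilobase for Thbs1, so the order of the last 4 changed and the Thbs1 mean was lower by over 1.5 times. In lymph node the order was Thbs2 with 78.5 ± 14.6, Thbs3 with 78.4 ± 10.9, Thbs1 with 35.6 ± 22.5, Thbs4 with 1.79 ± 1.10 and Comp with 0.881 ± 0.591 CPM per kilobase (SD, n = 3). Here Thbs2 and Thbs3 overlapped, as did Thbs4 and Comp, and Thbs1 lay between these pairs in every library. Among 10667 tested genes with a length, the mean level per kilobase of Comp stood at percentile 91.6 in muscle and 3.45 in lymph node, and that of Thbs4 at 90.1 and 12.5. Thbs1, Thbs2 and Thbs3 stood at percentiles 90.6, 90.8 and 97.3 in muscle and at 91.0, 96.1 and 96.0 in lymph node. Without muscle 4 the muscle percentiles were 84.2 for Thbs1, 90.8 for Thbs2, 97.2 for Thbs3, 92.8 for Thbs4 and 93.9 for Comp.

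The summed level of the 5 members was 218, 237 and 189 CPM per kilobase in muscle 2, 3 and 4, against 224, 186 and 176 in lymph node 1, 2 and 3. The tissues overlapped in this sum, with means of 214 ± 24.1 in muscle and 195 ± 25.1 CPM per kilobase in lymph node (SD, n = 3 each), while its makeup differed. Thbs4 and Comp together made up 28.5%, 44.8% and 10.1% of the sum in muscle 2, 3 and 4, and 0.405%, 1.72% and 2.21% in lymph node 1, 2 and 3. Thbs2 made up 14.4 ± 1.07% in muscle and 40.0 ± 2.18% in lymph node, and Thbs3 42.9 ± 7.03% and 41.0 ± 10.2% (SD, n = 3 each). Thbs1 and Thbs2, the trimers, held 24.9%, 20.4% and 42.7% in muscle and 68.9%, 57.1% and 46.6% in lymph node. The lowest lymph node value was close to that of muscle 4, where Thbs1 was high. The mean share of Thbs1 in muscle was 14.9%, and 8.75% without muscle 4. The ratio of Thbs3 to Thbs2 per kilobase was 3.50, 2.39 and 3.06 in muscle and 0.722, 1.06 and 1.32 in lymph node, without overlap. The ratio of Comp to Thbs4 was 0.906, 1.29 and 1.33 in muscle and 0.739, 0.292 and 0.652 in lymph node, where it rests on 17 counts of Comp and 39 of Thbs4. These shares and ratios come from the same values as the tests above and are descriptions.

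**Figure D3:**
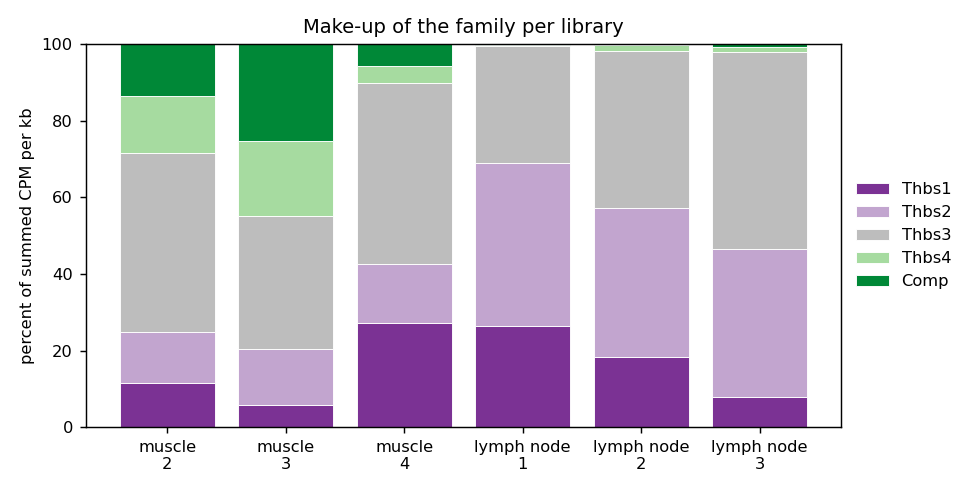
Share of each member, in percent, in the summed CPM per kilobase of the 5 members, for each of the 3 muscle libraries (left) and the 3 lymph node libraries (right). Thbs4 and Comp (greens) take 10.1% to 44.8% in muscle and 0.405% to 2.21% in lymph node, and Thbs2 (light purple) averages 14.4% in muscle and 40.0% in lymph node.

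Thbs4 and Comp had like patterns over the 6 libraries. After centring each gene's log2 CPM on its mean, the root mean square difference between them was 0.58, and with each other member it was 1.92 or more. Among 8964 other tested genes with a mean of at least 10 CPM, the gene nearest to both was Myoc, which encodes the secreted glycoprotein myocilin, at 0.51 from Thbs4 and 0.56 from Comp. Myoc had 2336, 2765 and 599 CPM in muscle, against 22.8, 115 and 103 in lymph node 1, 2 and 3, so that muscle 4 was the low muscle library and lymph node 1 the low lymph node library, as for Thbs4 and Comp. Next for Thbs4 came Prg4 (the joint lubricant lubricin, 0.76), Enpp1 (an enzyme that makes pyrophosphate, 0.82), Angptl1 (0.82) and Hmcn2 (0.85). Next for Comp came Prg4 (0.86), Hmcn2 (0.87), Dio2 (the enzyme that activates thyroid hormone, 0.89) and Enpp1 (0.89). The median difference of all candidates was 2.09 from Thbs4 and 2.43 from Comp. Without muscle 4, Myoc and Hmcn2 were again among the 5 nearest to both genes, while Prg4 was among them for neither. Enpp1 stayed among them for Thbs4 and not for Comp, Dio2 stayed for Comp, and Angptl1 did not for Thbs4. Hmcn2 was not low in muscle 4, with 2517, 2354 and 2572 CPM in muscle 2, 3 and 4. Prg4 was highest in lymph node 1, with 18.8 CPM against 11.6 and 14.6 in lymph node 2 and 3.

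Some markers of muscle fibres and tendon cells moved with these genes, and others did not. The tenocyte markers Scx, Tnmd, Mkx and Kera summed to 33.8, 41.5 and 8.06 CPM in muscle, against 2.28, 9.02 and 5.01 in lymph node 1, 2 and 3. Scx, the transcription factor that defines tendon cells, had 1 count over the muscle libraries and 1 over the lymph node libraries. Of the 4, 0, 1 and 2 were at 0 in muscle 2, 3 and 4, against 2, 0 and 1 in lymph node 1, 2 and 3. Tnmd had the most counts over each tissue, 80 in muscle and 19 in lymph node, but not in each library. In muscle 2, 3 and 4 Tnmd had 30, 49 and 1 counts, Kera 27, 4 and 0, and Mkx 6, 1 and 2. In lymph node 1, 2 and 3 Tnmd had 2, 14 and 3 counts, Kera 2, 3 and 6, and Mkx 0, 3 and 2. Mkx was highest in muscle 4, at 5.38 CPM against 3.16 and 0.768 in muscle 2 and 3. The 8 muscle fibre markers summed to 63.3, 71.5 and 16.1 CPM in muscle, against 10.3, 12.5 and 15.0 in lymph node, with 2, 1 and 4 of them at 0 in muscle 2, 3 and 4, 3, 2 and 3 at 0 in lymph node 1, 2 and 3, and Tnnc2 at 0 in all libraries. Acta1 had 35.3, 32.3 and 0 CPM in muscle, against 0, 0.430 and 0 in lymph node. Tnnt3 had 16.4, 23.8 and 0 CPM in muscle, against 2.86, 4.30 and 7.28 in lymph node. Acta1 and Tnnt3 made up most of the muscle fibre sum in muscle 2 and 3, but not in muscle 4 or in any lymph node library. The myosin genes Myh1, Myh2 and Myh4 did not follow Thbs4 and Comp, with at most 3.07 CPM in a muscle library and 3.64 CPM in a lymph node library, and Mylpf was highest in muscle 4, on 3 counts. Both sums were low in muscle 4, the library in which Thbs4 and Comp were low, and both rest on few counts there. The tenocyte sum held 1 count of Tnmd and 2 of Mkx, and the muscle fibre sum 1 count each of Myh1, Myh2 and Myh4 and 3 of Mylpf. Their part in the results for Thbs4 and Comp was not tested. The 6 chondrocyte markers summed to 27.4, 31.5 and 21.5 CPM in muscle 2, 3 and 4, against 28.6, 40.4 and 36.4 in lymph node 1, 2 and 3. Sox9 made up most of this in the libraries other than muscle 4, with 18.5, 23.8 and 8.06 CPM in muscle, against 24.6, 35.7 and 32.3 in lymph node. Hapln1, a cartilage link protein, had 6, 7 and 0 counts in muscle and 0 in every lymph node library, and Acan and Col2a1 had at most 5 counts in a library. The part of chondrocytes in the Comp result was not tested.

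**Figure D4:**
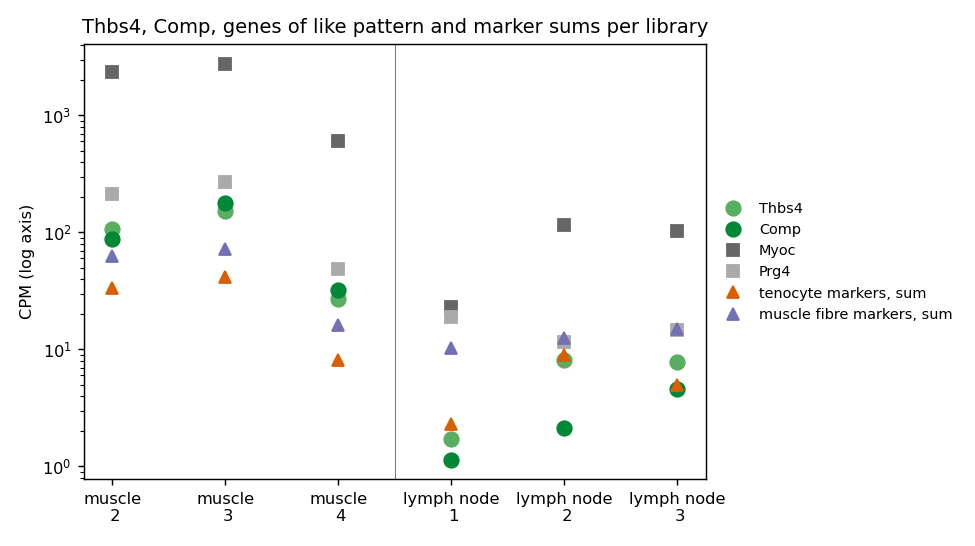
CPM on a log axis in each library, muscle left of lymph node, for Thbs4 and Comp (circles), for Myoc and Prg4, genes of like pattern (squares), and for the summed tenocyte and muscle fibre markers (triangles). All 6 are lower in muscle 4 than in muscle 2 and 3, and the tenocyte sum of muscle 4, 8.06 CPM, lies within the lymph node range of 2.28 to 9.02 CPM. That sum rests on 1 count of Tnmd and 2 of Mkx.

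For Thbs2, the 5 genes of nearest pattern were Glul (glutamine synthetase, 0.14), Klf6 (an immediate early transcription factor, 0.15), Serpina3n (a protease inhibitor, 0.17), Car13 (a carbonic anhydrase, 0.17) and Tpm3 (a tropomyosin, 0.18), against a median of 0.787 over the candidates. Of these, none was among the 5 nearest without muscle 4. For Thbs3 they were Fam45a, Kif2a (a kinesin), Nelfb (a subunit of negative elongation factor), Ints7 (an Integrator subunit) and Mical1, at 0.04 to 0.05, and Fam45a and Kif2a were also among the 5 nearest without muscle 4. For Thbs1 they were Mbd3, Acp5, Gnl1, Uqcr11 and Phospho2, at 0.39 to 0.42, and none was without muscle 4. The median over the candidates was 0.921 for Thbs1 and 0.438 for Thbs3. These medians differ between members, so the nearest distances are not compared between them.

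The counts of the gene lists below stand against 1.46% of all tested genes higher in muscle and 2.86% lower, against 4.79% and 7.58% without muscle 4, and against 0.247% to 0.645% higher and 1.00% to 1.63% lower when 1 other library was left out. Tendon and joint genes are set beside Thbs4 and Comp. Of 13 genes, 6 were tested: Cilp and Prg4 were higher in muscle, none was lower and 4 did not pass, with a median log2 fold change of 1.77 against 0.02 over all tested genes. Cilp, a matrix protein of cartilage and heart that carries a type 1 repeat, had 1007, 856 and 1277 CPM in muscle, against 88.5, 146 and 93.8 in lymph node (log2 fold change 3.25 ± 0.27 SE, adjusted p = 4.45e-04). Unlike Thbs4 and Comp, Cilp was highest in muscle 4. Prg4 had 213, 268 and 48.4 CPM in muscle, against 18.8, 11.6 and 14.6 in lymph node (3.62 ± 0.52, adjusted p = 0.00502), and it missed the threshold without lymph node 2 or without lymph node 3, at an adjusted p up to 0.0649. Tnmd, a tendon membrane protein named after its values were seen, had 15.8, 37.7 and 2.69 CPM in muscle, against 1.14, 6.01 and 1.37 in lymph node, with an adjusted p of 0.103 that was 0.00172 without muscle 4. The other genes that did not pass were Col12a1 (log2 fold change -0.88, adjusted p = 0.326), Fmod (0.74, adjusted p = 0.823) and Col14a1 (0.62, adjusted p = 0.175). With 1 library left out, the log2 fold change of Fmod was between -1.03 and 2.66. Scx, Mkx, Chad, Kera, Cilp2, Tnc and Col11a1 were too low to be tested.

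Among 17 receptors and co-receptors of the family, 14 were tested, of which 1 was lower in muscle, none was higher and 13 did not pass, against 2.86% of all tested genes lower, with a median log2 fold change of -0.16. The lower one was Cd36, a scavenger receptor through which thrombospondin-1 and thrombospondin-2 act on endothelial cells, with 2.64, 1.54 and 2.69 CPM in muscle, against 118, 101 and 94.7 in lymph node. Its log2 fold change was -5.50 ± 0.32 (SE, adjusted p = 7.23e-05), on 8 counts over the muscle libraries. Cd47, another thrombospondin-1 receptor, had 685, 801 and 497 CPM in muscle, against 829, 803 and 857 in lymph node (-0.32, adjusted p = 0.535). Without muscle 4, Itga5 passed as higher and Calr as lower too, where 4.79% and 7.58% of all tested genes passed. Itga5, an integrin chain, had 190, 147 and 10.8 CPM in muscle, against 109, 111 and 76.9 in lymph node, so muscle 4 lay far below the other libraries. Cd47, Itga5 and Calr were picked after their values were seen.

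Of 10 TGF-beta genes, 8 were tested: 2 were higher, none was lower and 6 did not pass, with a median log2 fold change of 0.17. Ltbp4, which holds latent TGF-beta in the matrix, had 1840, 1641 and 1099 CPM in muscle, against 415, 252 and 319.6 in lymph node (2.22 ± 0.26 SE, adjusted p = 0.00177). Tgfbr1, a signalling receptor, had 83.3, 101 and 48.4 CPM in muscle, against 34.3, 32.6 and 38.2 in lymph node (1.20 ± 0.27, adjusted p = 0.0386). It missed the threshold whenever 1 library other than muscle 4 was left out, at an adjusted p up to 0.275. The list gave 3 higher and 1 lower without muscle 4, and 1 higher whenever 1 other library was left out.

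Of 19 matrix partners of the family, 11 were tested: Matn2 was higher, Tnfaip6 was lower and 9 did not pass, with a median log2 fold change of -0.38. Matn2, a matrilin of the group that Comp binds, had 204, 195 and 142 CPM in muscle, against 95.4, 42.5 and 34.6 in lymph node (1.68 ± 0.37 SE, adjusted p = 0.0337). It missed the threshold without muscle 2, muscle 3, lymph node 2 or lymph node 3, at an adjusted p up to 0.245. Tnfaip6 encodes TSG-6, a hyaluronan-binding protein that binds thrombospondin-1. It had 69.1, 55.3 and 53.8 CPM in muscle, against 774, 379.8 and 463 in lymph node (-3.16 ± 0.30, adjusted p = 7.00e-04). Cartilage partners of Comp, among them Acan, Col2a1 and the collagen IX genes, were too low to be tested. The list gave 3 higher and 2 lower without muscle 4.

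Of 8 metalloproteases that cleave thrombospondins or Comp, 6 were tested: 2 were lower in muscle, none was higher and 4 did not pass, with a median log2 fold change of -1.24. Adamts1, which cleaves thrombospondin-1 and thrombospondin-2, had 255, 247 and 83.3 CPM in muscle, against 1020, 846 and 951 in lymph node (-2.22 ± 0.35 SE, adjusted p = 0.00755). It missed the threshold whenever 1 lymph node library was left out, at an adjusted p up to 0.0556. Mmp3, or stromelysin-1, had 35.3, 35.3 and 13.4 CPM in muscle, against 1629, 1084 and 889 in lymph node (-5.29 ± 0.36, adjusted p = 2.00e-04). Adamts7 and Adamts12, which cleave Comp, did not pass, with log2 fold changes of 1.12 (adjusted p = 0.390) and -0.46 (adjusted p = 0.240); they were picked after their values were seen. Without muscle 4 another protease, Mmp19, passed as lower.

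Of 28 other genes whose proteins carry thrombospondin type 1 repeats, 24 were tested: 6 were higher, 3 were lower and 15 did not pass, with a median log2 fold change of -0.27. Rspo3, an R-spondin that strengthens Wnt signalling, was lower in muscle, with 13.7, 10.8 and 2.69 CPM against 70.2, 82.9 and 79.7 CPM in lymph node (-2.83 ± 0.33 SE, adjusted p = 0.00151). Adamtsl2, a microfibril-associated protein, was higher, with 58.5, 48.4 and 37.6 CPM in muscle, against 5.14, 8.59 and 8.19 in lymph node (2.73 ± 0.33, adjusted p = 0.00194). Cilp, given above, is another of the named 4, and Cyr61, a matricellular integrin ligand, was lower in muscle (-3.12 ± 0.25, adjusted p = 4.45e-04). Without muscle 4 the list gave 7 higher and 8 lower, and 3 higher and 2 lower whenever 1 other library was left out. The numbers over all genes moved the same way, from 158 higher and 310 lower with all libraries to 539 and 852 without muscle 4, and to 28 to 73 and 114 to 183 when 1 other library was left out.

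Of 12 ATF6 and chaperone genes, set beside Thbs4 for its known action through ATF6 in mouse heart, all were tested, 1 was lower, none was higher and 11 did not pass, with a median log2 fold change of -0.62. The lower one, the chaperone Hsp90b1, had 808, 579 and 527 CPM in muscle, against 1382, 1174 and 1085 in lymph node (-0.92 ± 0.21 SE, adjusted p = 0.0437). It missed the threshold without muscle 3 and whenever 1 lymph node library was left out, at an adjusted p up to 0.208, and with total-count scaling. The list gave 6 lower without muscle 4 and 2 lower without muscle 2, with none higher.

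Of 18 immediate early and serum response genes, set beside Thbs1, all were tested: 15 were lower in muscle, 1 was higher and 2 did not pass, with a median log2 fold change of -2.84. Without muscle 4, 16 were lower and 1 was higher. The named genes Fosb, Atf3, Junb and Fos had log2 fold changes of -5.06, -5.01, -3.03 and -3.67. The summed list had 3160, 3850 and 3269 CPM in muscle 2, 3 and 4, against 22167, 20122 and 21698 in lymph node 1, 2 and 3. Muscle 3 was thus the highest muscle library in this sum and the lowest in Thbs1, and lymph node 1 was the highest lymph node library in both. Ctgf, a matricellular growth factor named after its values were seen, was the higher one, with 237, 232 and 438 CPM in muscle, against 61.1, 33.1 and 46.9 in lymph node (2.67 ± 0.33 SE, adjusted p = 0.00211). This list moved with tissue as Thbs2 did, and Klf6, second in likeness to Thbs2, belongs to it. Its part in the Thbs2 result was not tested.

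**Figure D5:**
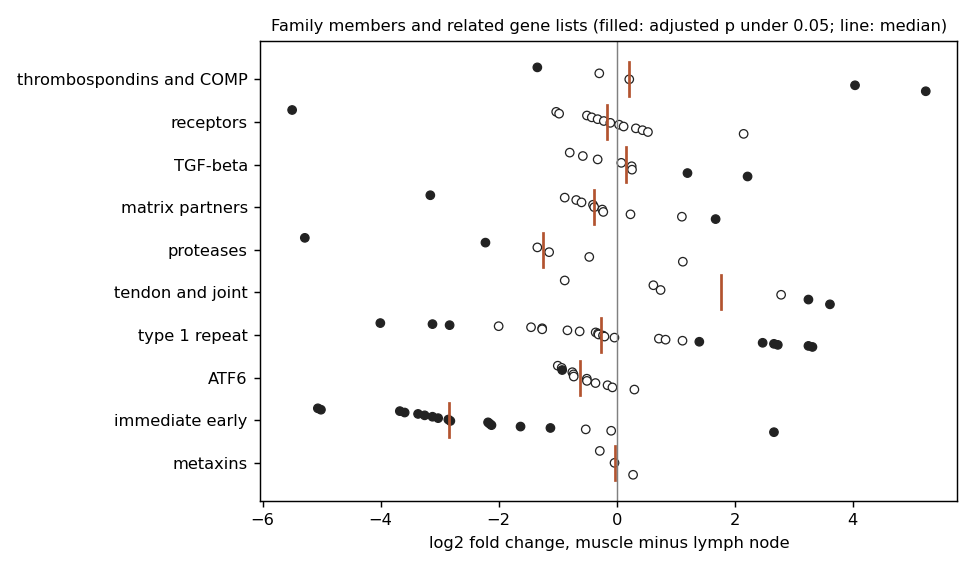
Log2 fold change, muscle minus lymph node, of the tested genes of the family and of 9 related lists; each point is a gene, filled where the adjusted p was under 0.05, and the vertical mark is the list's median. The family spans -1.34 for Thbs2 to 5.24 for Comp, and medians of the other lists lie between -2.84 (immediate early) and 1.77 (tendon and joint).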

How the data were processed

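The deposited table holds raw counts of reads or fragments per gene symbol for 6 libraries. Per the labels' protocols, oligo(dT)-primed cDNA of 1000 sorted cells was amplified by limited PCR, fragmented with a transposase and sequenced as 25-base read pairs, with no molecular identifiers described, so counting intervals cover counting error only. The submitters' processing notes name STAR 2.5.4, featureCounts and mm10. For the annotation release, strand setting and sorting markers, the sources used here give nothing. Columns were assigned to tissue by name. The muscle columns are numbered unlike the muscle titles, so they were used as 3 replicates without a link to single samples.

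The counts were tested with edgeR 4.0.16 in R 4.3.3 (filterByExpr, TMM scaling, quasi-likelihood F test on tissue alone, two-sided, Benjamini-Hochberg over the 10823 tested genes, threshold 0.05). Fold changes are on the log2 scale with lymph node subtracted from muscle. A standard error was had by dividing the absolute log2 value by the root of its F statistic, and 95% intervals are normal ones around the fold change. They are narrower than intervals that would allow for the small number of libraries, as the F test does. Over all tested genes the median was 0.02 with TMM and 0.10 with total counts. Counting intervals are exact Poisson intervals at 95%. Gene lengths and positions come from GENCODE M21 (GRCm38), where 49365 of 52997 symbols (93.1%) matched. Pattern likeness used log2 CPM with a prior count of 2.

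The members, the 9 gene lists and the 12 cell type marker lists were chosen with earlier results of these data known. Named genes are the 5 members, up to 4 genes per list that passed the test, by smallest p, and the 5 genes of nearest pattern to each member, leaving out model names. Alternatives were RLE and total-count scaling, no filter, a filter of 10 CPM in 3 libraries, DESeq2 1.42.0, limma-voom (limma 3.58.1) with and without library weights, leaving out each library, shares without division by length and, added after the data were seen, a replicate block by column number. The procedure was also run on simulated data. For each gene these had the same dispersion in every library, so no library stood apart as muscle 4 did. Nothing is concluded from that run here. Mural and Schwann cell markers, not described further, summed to 22.2 to 59.1 and 6.92 to 8.06 CPM in muscle and to 20.5 to 48.5 and 7.42 to 13.3 CPM in lymph node.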

Additional observations from a re-analysis of the deposited data

How the results depend on the processing

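Thbs2, Thbs3 and Comp kept their direction and their side of the threshold under all 14 alternatives, with log2 fold changes of -1.53 to -1.16, 0.04 to 0.30 and 4.53 to 5.84. Thbs4 did so under 12, and leaving out 1 library gave 3.57 to 4.37, with the adjusted p past the threshold without lymph node 2 (4.30) and without lymph node 3 (4.23). In those fits edgeR's common coefficient of biological variation was 0.332 and 0.326, against 0.265 with all libraries and 0.151 without muscle 4. Thbs1 did not pass under any alternative. Leaving out 1 library gave -0.84 to 0.26 and turned its direction without lymph node 1 (0.26) and without muscle 3 (0.05).

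Over all genes, the number higher in muscle was 158, against 28 to 539 with 1 library left out, 260 with DESeq2, 552 with limma-voom and library weights and 419 with no filter. The number lower was 310, against 114 to 852 with 1 library left out, 814 with limma-voom and library weights and 526 with no filter. The cause of these shifts was not tested. Of 252 list counts recomputed, 193 stayed within 1.5 times and 59 did not. The mean share of Thbs2 was 20.9% in muscle and 47.6% in lymph node without division by length, and the other 38 of 40 recomputed shares moved by less than 1 SD. Of the 40, 6 moved by over 1.5 times. The share of Comp in muscle was 9.50% without division by length and 9.66% without muscle 3, against 14.9%, and that of Thbs1 in muscle was 8.75% without muscle 4, against 14.9%. In lymph node the share of Comp was 0.244% without division by length and 0.281% without lymph node 3, against 0.478%, and that of Thbs4 was 0.547% without division by length, against 0.968%.

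Columns of the tissues share the numbers 2 and 3, so a replicate block by column number was fitted, chosen after seeing the data. No label ties the numbers to a shared animal, so same-numbered libraries are not taken as pairs. Their deviations from their tissue means correlated at r = -0.03 for number 2 and 0.02 for number 3 across genes. The muscle means include muscle 4, which stood apart, so these correlations cannot decide whether same-numbered libraries share an animal. In the block fit muscle 4 and lymph node 1 each stand alone and add nothing to the fold changes, which were -0.25 for Thbs1, -1.16 for Thbs2, 0.14 for Thbs3, 3.99 for Thbs4 and 5.28 for Comp, with no call changed, and 627 genes were higher and 903 lower. The lymph node levels of Comp and Thbs4 rest on 17 and 39 counts, which limits their fold changes, and muscle 4 adds 12 and 10 counts.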
